A study of Mus musculus with 2 samples.

Results

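Keratins, the proteins of desmosomes and hemidesmosomes, the epithelial adhesion molecules and the genes of squamous differentiation were examined in mouse mammary tumors. They were 45 genes listed by name, chosen with earlier results of these data known. Of these genes, 42 were read by at least 1 probe set that names a single gene, with 66 probe sets in all among the 22690 on the array. The remaining 3 were Dsg1a and Dsg3, for which no such probe set was found here, and Sprr2a, whose probe sets name several near-identical copies of the gene. The series holds 12393 genes on 2 Affymetrix mouse expression arrays, 1 for each diet.

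All tumors came from female wild-type FVB mice, an inbred strain, treated from 5 weeks of age with the progestin medroxyprogesterone acetate (15 mg) and then with the polycyclic carcinogen DMBA (4 weekly doses of 1 mg, by gavage). Control animals then stayed on standard chow, and from the day after the last carcinogen dose the other animals received chow with 0.1% GW9662, an irreversible antagonist of the nuclear receptor PPARγ. The comparison asks how this antagonist altered gene expression in the tumors that developed. RNA was pooled from 5 mice for each array, so there is 1 value per diet, the spread between tumors is not known, and no test between the diets was possible. In bulk tumor RNA, fewer cells of a type and less RNA per cell cannot be told apart.

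Keratins are intermediate filament proteins that assemble as pairs of an acidic type I and a basic type II chain, and the pair a cell makes marks its kind of epithelium. In the mammary gland the luminal cells that line ducts and alveoli make the simple pair Krt8 and Krt18 with Krt7 and Krt19, whereas basal and myoepithelial cells make Krt5 and Krt14 with Krt17. Desmosomes join the filaments of neighbouring cells through cadherins and plaque proteins, and hemidesmosomes anchor them to the basement membrane. Squamous epithelia such as epidermis go further and crosslink plakins, involucrin, loricrin and small proline-rich proteins into a cornified envelope. Mammary tumors induced by chemical carcinogens can contain squamous areas. By histology, the study reported a higher share of adenocarcinomas among tumors of GW9662-treated mice. The part that tumor type has in the ratios below was not tested.

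Signals are linear intensities in arbitrary units as deposited, a gene stands at whichever of its probe sets was brightest on average, pairs of signals are in the order control diet then GW9662 diet, and log2 ratios are GW9662 over control. The study's methods set the thresholds used here for a call, a signal of 300 or more in one of the tumor pools and a 3-fold difference between them. Signals below 100 were treated as a floor, no fold is given when both signals lie below it, and signals of different probe sets were not compared as levels. The 2% trimmed mean signal was 500.2 on both arrays, and the 33 probe sets of olfactory receptors, genes not known to act in mammary tissue, reached at most 25.8. Among probe sets that share a gene, log2 ratios spread with an SD of 0.36, which holds no variation between mice.

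Most of these epithelial genes were close to level between the diets, and a single one met the thresholds. Among the 42 genes, 25 had a signal of 300 or more with one of the diets, 31 had a mean signal of at least 100 and 10 were below 100 on both arrays. Eppk1, which encodes the giant plakin epiplakin, was at least 3-fold higher on the GW9662 array, and it was also the only one past 2-fold. This is 1 gene of 25 (4%), where 0.215% of the 6053 genes that reached 300 were at least 3-fold higher and 1.02% were at least 2-fold higher. None of the 25 members was at least 2-fold lower, against 4.68% of all these genes, and 2.68% of them were at least 3-fold lower. At 1.5-fold, a threshold added after the values were seen, Eppk1 and Lgals7 were higher and Krt5 and Krt14 were lower, 2 of 25 in each direction. The share of all genes past 1.5-fold was 6.41% for higher and 9.8% for lower, so the members' 8% in each direction lies near the background.

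Across the 31 genes that averaged at least 100, the median log2 ratio was 0.15, with 22 genes higher and 9 lower on the GW9662 array. The median over all 8009 genes with such a signal was 0.03, with 4234 higher and 3774 lower. When ratios were centred on the median of all genes, 20 members were higher and 11 lower, and after quantile normalization 23 were higher and 8 lower. The ratio lay within the SD between probe sets for 19 of the 31 members (61.3%), close to the 63.4% of all genes.

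**Figure D1:**
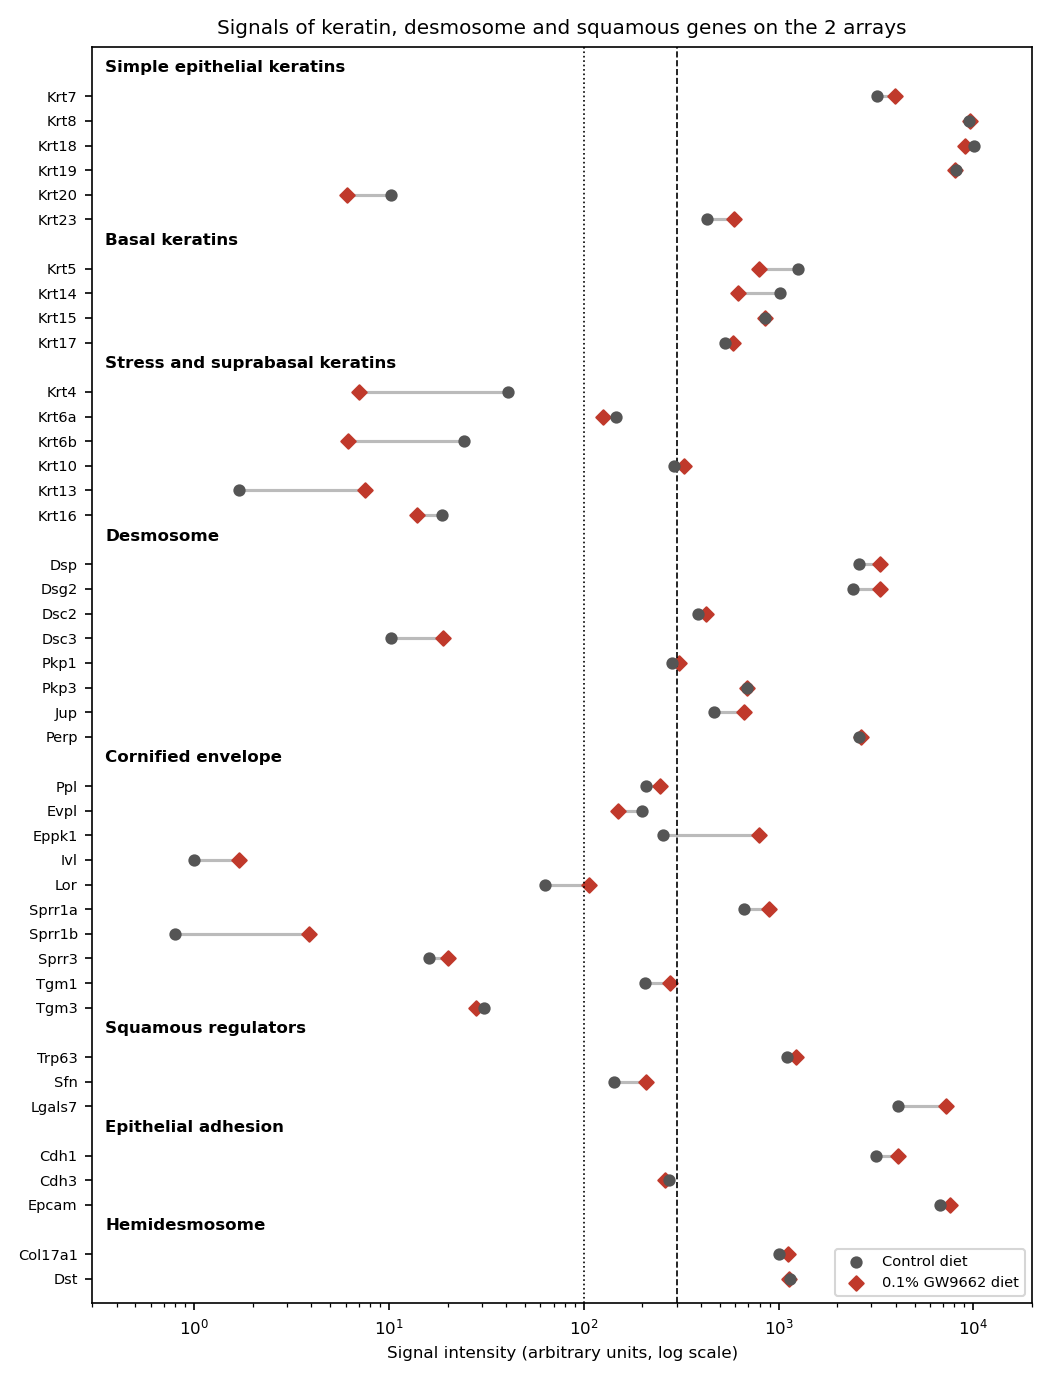
Signals of the 42 genes on a log axis, with the control diet array as gray circles and the GW9662 diet array as red diamonds, by family. The dotted line marks 100 and the dashed line 300. The circles and diamonds of Krt8, Krt19, Krt15, Pkp3 and Dst overlap, and the longest line to the right of 100 is that of Eppk1 (255 and 793).

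The simple keratins of luminal cells differed little between the diets. Krt8, the type II chain of the luminal pair, had signals of 9496 and 9665. Its partner Krt18 had 10018 and 9025, and Krt19, which is abundant in luminal cells, had 8109 and 8018. Of these 3 genes the furthest from level was Krt18, 1.11-fold lower. Krt7, a simple keratin of ducts and glands, had 3204 and 3945, 1.23-fold higher, and Krt23, a type I keratin of simple epithelia, had 430 and 591, 1.38-fold higher. Krt20, a keratin of intestine and bladder, had 10.2 and 6.1, as dim as the olfactory receptors. The median log2 ratio of the 5 measured simple keratins was 0.03, and it was -0.0032 with ratios centred on the median of all genes.

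Krt8 was read by 3 probe sets whose log2 ratios lay between 0.01 and 0.04. The other probe sets had signals of 8049 and 8125, and of 7466 and 7701, so all 3 put Krt8 level. Both carry the suffix that Affymetrix gives to probe sets whose probes may also bind related transcripts.

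The defining pair of basal keratins was lower on the GW9662 array while the other basal keratins were level. Krt5, the type II chain, had 1256 and 793, 1.58-fold lower with a log2 ratio of -0.66. Krt14, its type I partner, had 1022 and 619.5, 1.65-fold lower with a log2 ratio of -0.72. Both ratios exceeded the SD of 0.36 between probe sets and neither reached 2-fold. A further probe set of Krt14 had 1006 and 603, so Krt14 was lower at both, and the last (7.3 and 23.5) was within the range of the olfactory receptors. The second of these may bind related transcripts, and a probe set that names Krt14 together with Krt17 was left out. Krt15, a type I keratin of basal and progenitor cells, had 857 and 847. Krt17, induced in basal cells on injury and in many basal-like tumors, had 532 and 584, and its other probe set was near background (9.9 and 19.8). Thus 2 of the 4 basal keratins were lower beyond the spread between probe sets, while Krt15 and Krt17 stayed within it. Ratios beyond this spread were common, since only 63.4% of the 8009 genes with a mean signal of at least 100 lay within it.

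Relative to the luminal chains, the basal pair was lower on the GW9662 array. The log2 ratio of Krt5 was lower than that of Krt8 by a difference of -0.69, and that of Krt14 differed from that of Krt18 by -0.57, where the SD between probe sets puts 0.51 on such a difference. A constant scaling factor on either array leaves these differences as they are, and they were not recomputed after quantile normalization. The chains of each pair stayed close to each other, with a difference of 0.06 between Krt5 and Krt14 and of 0.18 between Krt8 and Krt18. The median log2 ratio of the 4 basal keratins was -0.34 and ranged over its members from -0.72 to 0.13.

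The promoters of these pairs are shown because the chains of each pair had similar ratios, lower for the basal pair and level for the luminal pair. Each sequence holds the 250 bases before the annotated start, 5′ to 3′ on the gene's strand, from RefSeq on GRCm38.p6, at chr15:101712906-101713155 on the minus strand for Krt5, chr11:100206031-100206280 on the minus strand for Krt14, chr15:102004343-102004592 on the minus strand for Krt8 and chr15:102027966-102028215 on the plus strand for Krt18. No protein-coding gene lies between Krt8 and Krt18. Capitals mark AGGTCA, the half-site of the element bound by PPARs and other nuclear receptors.
Krt5: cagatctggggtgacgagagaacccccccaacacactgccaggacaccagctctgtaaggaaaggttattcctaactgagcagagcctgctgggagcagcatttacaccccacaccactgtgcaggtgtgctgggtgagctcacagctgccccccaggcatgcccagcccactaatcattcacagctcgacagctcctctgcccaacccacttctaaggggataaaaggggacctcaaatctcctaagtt
Krt14: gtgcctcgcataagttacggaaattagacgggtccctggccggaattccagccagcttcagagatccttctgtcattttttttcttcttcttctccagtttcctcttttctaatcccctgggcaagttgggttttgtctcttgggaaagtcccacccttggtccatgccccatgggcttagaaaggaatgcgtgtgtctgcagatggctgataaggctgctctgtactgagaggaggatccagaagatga
Krt8: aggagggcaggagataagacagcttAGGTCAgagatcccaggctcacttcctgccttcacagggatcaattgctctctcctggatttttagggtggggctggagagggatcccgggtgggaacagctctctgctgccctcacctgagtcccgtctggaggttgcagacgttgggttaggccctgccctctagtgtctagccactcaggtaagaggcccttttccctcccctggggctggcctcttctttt
Krt18: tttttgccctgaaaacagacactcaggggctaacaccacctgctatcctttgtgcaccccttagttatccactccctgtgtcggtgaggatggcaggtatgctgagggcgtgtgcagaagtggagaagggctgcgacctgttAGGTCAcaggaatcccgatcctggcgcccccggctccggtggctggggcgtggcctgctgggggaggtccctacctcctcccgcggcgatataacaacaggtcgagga

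Besides AGGTCA, the searched motifs were the TATA box as TATAAA, the GC box of Sp1 as GGGCGG and the AP-1 site as TGANTCA, each on both strands. Krt8 held AGGTCA starting 225 bases before the start and Krt18 held it 108 bases before, and the windows of Krt5 and Krt14 held none of the 4 motifs. AGGTCA occurred in 14.0% of the 32851 promoter windows of the same length and in 8 of the 26 windows of member genes. TATAAA occurred in 12.4% of all windows and in 9 of the 26, among them Krt10, Ivl, Lor, Sprr1a, Sprr1b and Sprr3. GGGCGG occurred in 32.7% and 7 of 26, and TGANTCA in 6.75% and 6 of 26. Promoter windows were found for 23 of the 45 genes. A match of letters is a description and not a bound site.

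Of the 6 keratins of stressed and suprabasal squamous cells, 4 were below 100 on both arrays. Krt6a, induced in hyperproliferative epidermis, had 147 and 126, and its other probe sets had 80.3 and 66.0 and 35.7 and 28.5. Krt6b, a close copy of Krt6a, had 24.2 and 6.2, and Krt16, their type I partner, had 18.8 and 14.0. Krt4 (40.9 and 7.0) and Krt13 (1.7 and 7.5, with 2.9 and 0.4 at another probe set), the suprabasal pair of oral and esophageal epithelium, were below 100 as well. Krt10, a type I keratin of suprabasal epidermis, had 289 and 328, 1.13-fold higher. Krt1, the chain that pairs with Krt10 in epidermis, had 15.4 and 16.2. At these low signals the members below 100 have no order between the diets.

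Desmosomal genes were level to slightly higher on the GW9662 array. Dsp, which encodes desmoplakin, the link between plaque and keratin filaments, had signals of 2603 and 3319, 1.28-fold higher, and 1274 and 1767 at a second probe set, while its last probe set gave 3 and 6.7. Jup, which encodes plakoglobin, had 466 and 664, 1.42-fold higher. The desmosomal cadherin Dsg2, the form of simple epithelia, had 2408 and 3314, 1.38-fold higher. For Jup and Dsg2 the log2 ratios of 0.51 and 0.46 exceeded the SD between probe sets, and for the first Dsp probe set (0.35) the ratio did not. Dsc2, the partner cadherin of Dsg2, had 386 and 425, and Dsc3, the basal form, had 10.3 and 19.0. Pkp1, the plakophilin of stratified epithelia, had 284 and 310, and Pkp3 had 688.5 and 692.5. Perp, a p53 target and desmosome component, had 2575 and 2665. All 7 desmosomal genes that averaged 100 or more were higher, with a median log2 ratio of 0.14, but Pkp3 was lower with ratios centred on the median of all genes or with the median over probe sets, and Perp was lower after quantile normalization, so that 6 of 7 were higher under each of these.

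Probe sets of the same desmosomal or hemidesmosomal gene did not always point one way. Dsg2 was higher at its 2 probe sets with the highest signals (2408 and 3314, 1720 and 2085) and at 1 other (97.7 and 127), and lower at the remaining 3 (487.5 and 432, 191 and 149.8, 87.0 and 63.0). Pkp3 was level at the first probe set and lower at the second (108 and 76.6), and Dsc2 had a second probe set at 72.2 and 67.4. Over 5 members with more than 1 probe set of mean signal 100 or more, the direction was the same at all of them for Dsp, Krt8 and Krt14 and mixed for Dsg2 and Dst. Which exons these probe sets read was not analysed here.

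**Figure D2:**
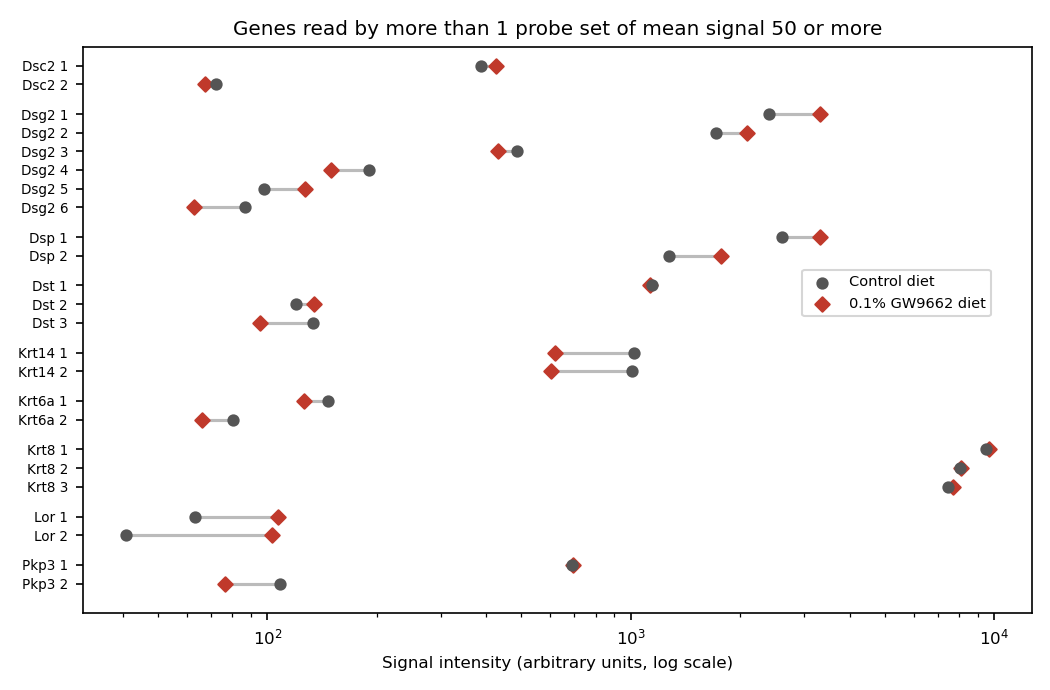
Signals of genes with more than 1 probe set of mean signal 50 or more on a log axis, with the control diet array as gray circles and the GW9662 diet array as red diamonds. Probe sets of a gene are numbered by falling mean signal. Both Krt14 probe sets shown are lower on the GW9662 array, the 3 of Krt8 are level, and those of Dsg2 point both ways.

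Hemidesmosomal genes were level. Col17a1, the transmembrane collagen of hemidesmosomes, had signals of 1008 and 1119, and Dst, whose epithelial form is the plakin BPAG1e, had 1142 and 1130. The other Dst probe sets had 119.7 and 134, 133.9 and 95.5, and 48.6 and 40.3. Other genes of the basal epithelial attachment were level to slightly higher, with 7 of 9 measured genes higher and a median log2 ratio of 0.27. Plec, the plakin that binds integrin β4, had 1179 and 1779, 1.51-fold higher, Itga3 had 240 and 361, 1.51-fold higher, Lama5 had 549.7 and 741, and Col7a1, the anchoring fibril collagen, had 761.5 and 1025. None of these 9 genes reached 2-fold, nor did the other desmosomal genes Pkp2 (865.5 and 837) and Pkp4 (1376 and 1438). A further probe set above 100 was lower for Pkp2 (520 and 377.5), Pkp4 (483 and 316) and Lama5 (415 and 358), and higher for Plec (340 and 403). With the median over probe sets, both Pkp2 and Pkp4 were lower.

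Epithelial adhesion molecules were level to slightly higher on the GW9662 array. Cdh1, which encodes E-cadherin, had signals of 3158 and 4109, 1.30-fold higher, and Epcam had 6757 and 7580, 1.12-fold higher. Cdh3, the P-cadherin of basal and myoepithelial cells, had 273 and 262. Among 13 other measured genes of epithelial adhesion and polarity, 11 were higher and 2 lower, or 10 and 3 with centred ratios or with the median over probe sets, the median log2 ratio was 0.12, and none passed 2-fold. They included Crb3, a polarity protein of the apical membrane (268 and 440.0, 1.64-fold higher), Rab25 (927 and 1222), Spint1 (437 and 573) and the splicing regulator Esrp2 (457 and 571).

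Within the cornified envelope family, Eppk1 was higher on the GW9662 array while Ivl, Lor, Sprr1b, Sprr3 and Tgm3 had mean signals below 100 and Sprr1a and Tgm1 did not. Eppk1 had a signal of 255 in the control tumors and 793 in the GW9662 tumors, 3.11-fold higher with a log2 ratio of 1.64, at its only probe set. Epiplakin is built of plakin repeats that bind keratin filaments, in simple as well as stratified epithelia. The plakins of the envelope itself moved less, with 209 and 248 for Ppl, which encodes periplakin, and 199.9 and 151 for Evpl, which encodes envoplakin. The log2 ratio of Eppk1 exceeded that of Dsp by 1.29, where the SD between probe sets puts 0.51 on such a difference.

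Sprr1a, a small proline-rich envelope precursor that is also induced by stress, had 662 and 896, 1.35-fold higher, and Tgm1, the membrane-bound transglutaminase that crosslinks the envelope, had 205 and 278, 1.35-fold higher. The other precursors were dim on both arrays. Involucrin (Ivl) had 1.0 and 1.7, Sprr1b had 0.8 and 3.9, Sprr3 had 16.1 and 20.2, and the hair and epidermal transglutaminase Tgm3 had 30.7 and 28. Loricrin (Lor), the main protein of the mature envelope, had 63.1 and 106.9 at one probe set 40.8 and 103 at another and 1.6 and 6 at the last, so that against the floor it was at least 1.07-fold higher. Of the 10 genes listed in this family with a probe set, 5 had a mean signal of at least 100. Of these Ppl, Eppk1, Sprr1a and Tgm1 were higher and Evpl lower, with a median log2 ratio of 0.44 that includes Eppk1. With a minimum mean signal of 300, Eppk1 and Sprr1a alone remain and the median is 1.04.

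The 3 regulators and proteins of stratified epithelium were all higher on the GW9662 array, to differing degrees. Lgals7, which encodes galectin-7, a lectin of stratified epithelia and of mammary basal cells, had 4119 and 7224, 1.75-fold higher with a log2 ratio of 0.81. Sfn, the epithelial 14-3-3σ protein, had 143 and 208, 1.45-fold higher. Trp63, which encodes the p63 factor that specifies basal and squamous cells, had 1103 and 1226, 1.11-fold higher, and its other probe sets (35.5 and 47.0, 15.4 and 3.3) were below 100. The log2 ratio of Trp63 (0.15) thus lay apart from those of the basal keratins Krt5 and Krt14, by differences of -0.81 and -0.87 in the keratins.

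**Figure D3:**
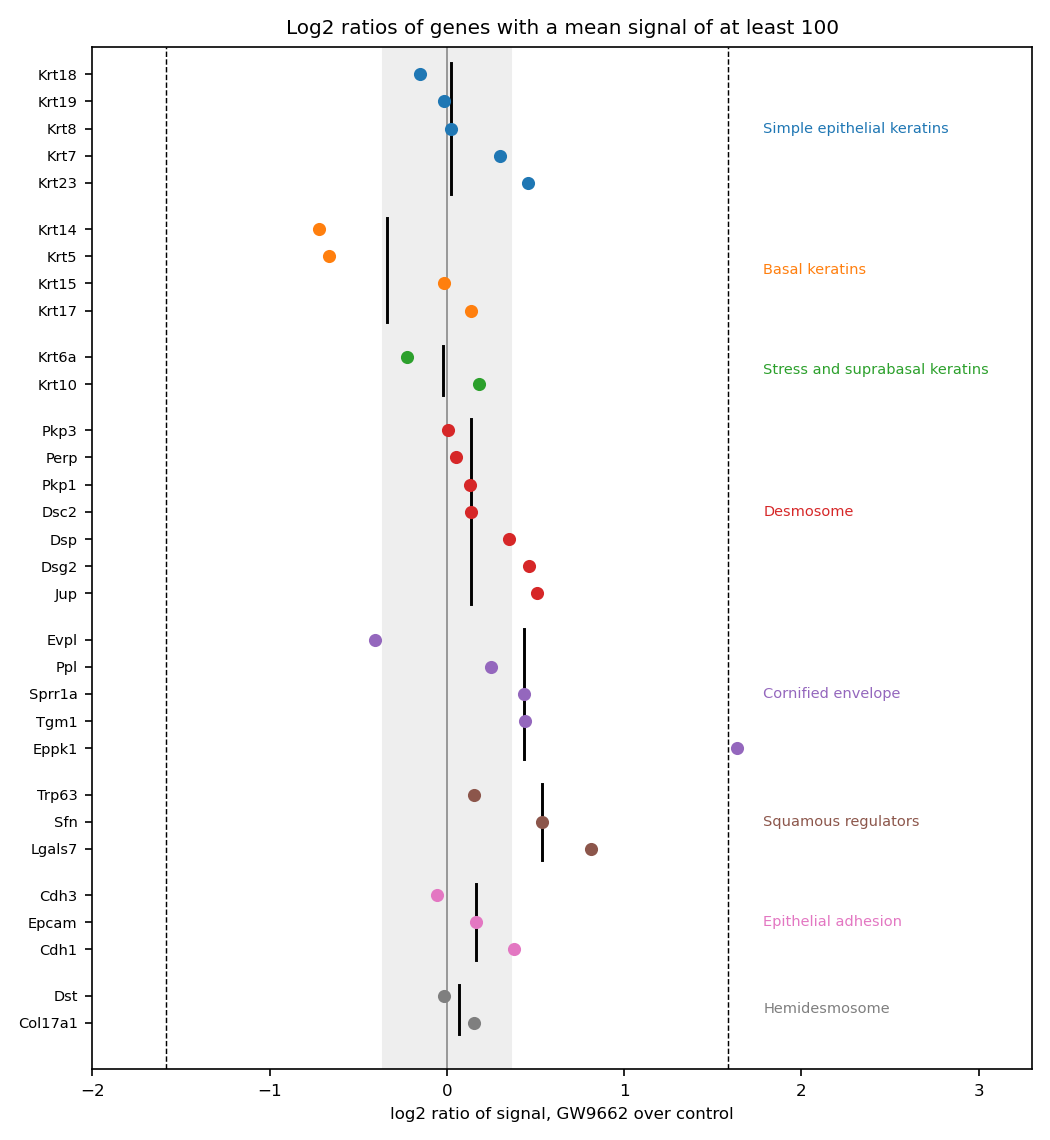
Log2 ratios of signal, GW9662 over control, for the 31 genes with a mean signal of at least 100, by family. Black bars are family medians, the gray band is the SD of 0.36 between probe sets that share a gene, and dashed lines mark 3-fold. Eppk1 (1.64) lies past the upper line, Krt5 (-0.66) and Krt14 (-0.72) lie below the band, and the other keratins lie in or near it.

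Cornification genes outside the members were mostly dim, and those with signal split by direction. Of 36 such genes with a probe set, 30 were below 100 on both arrays, among them filaggrin (Flg, 5.3 and 0.2), Hrnr (0.1 and 0.4), Casp14 (1.0 and 1.7) and Krtdap (37.2 and 31.4). Ly6d, a membrane-anchored protein of keratinocytes and other epithelia, had 4406 and 1157, 3.81-fold lower. Calml3, a calmodulin-like protein of epithelium, had 314 and 94.7, at least 3.14-fold lower. Sprr2f, one of several near-identical Sprr2 genes whose transcripts may bind the same probes, had 497 and 236, 2.11-fold lower, while Serpinb5, which encodes maspin, had 559 and 732. Ly6d and Calml3 thus passed 3-fold in the direction opposite to Eppk1. Of the 5 genes of this list that averaged 100 or more, 2 were higher and 3 lower. Their median log2 ratio was -1.08, against 0.44 in the cornified envelope family.

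Of 21 other keratins with a probe set, 19 were below 100 on both arrays, including the hair keratins Krt31, Krt33a, Krt34 and Krt86. Krt79, a keratin of the hair follicle and sebaceous duct, had 487 and 116.5, 4.18-fold lower, and was the only one past 3-fold. Krt80, expressed late in epithelial differentiation, had 78.2 and 170, at least 1.70-fold higher. Of 11 hair follicle and sebaceous markers with a probe set, 10 were below 100 on both arrays, and Msx2, a homeobox factor that mammary epithelium also expresses, had 336 and 609. The summed signal of these 11 markers was 474 and 765, most of it from Msx2.

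Transcription factors and Notch components of squamous differentiation were mostly close to level at their brightest probe sets. Of 14 that averaged 100 or more, 10 were higher and 4 lower with a median log2 ratio of 0.12, or 8 and 5 of 13 with the median over probe sets. Tfap2c, an AP-2 factor of mammary and epidermal cells, had 1205 and 2198, 1.82-fold higher at this probe set, and 747 and 879 and 613 and 664 at its others. Tfap2a had 651 and 915, Notch3 had 664 and 974, and Sox9 had 513 and 356. Klf4 had 928.1 and 988.7, and Ehf had 1512.9 and 1338. None reached 2-fold at its brightest probe set. Further probe sets above 100 were lower for Sox9 (248.9 and 124.6), Klf4 (335.7 and 182.8) and Notch1 (166.5 and 124.8). The Sox9 difference there was 1.998-fold. Ehf was also lower at its others (733 and 439.4, 408.8 and 283.5). Besides Tfap2c, such probe sets were higher for Tfap2a (362.4 and 434.1), Notch3 (128.6 and 185) and Jag2 (194.5 and 201.3).

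Smooth muscle contractile genes of myoepithelium were level to lower on the GW9662 array. Of 7 measured genes 6 were lower, or 5 of 7 with the median over probe sets and 7 of 7 with centred ratios. Cnn1, which encodes calponin, had 1099.6 and 611, 1.80-fold lower, Smtn had 383 and 239.7, Myh11 had 983 and 624, and Mylk, the myosin light chain kinase, had 2240 and 1477, whereas Acta2 (9559 and 9275) and Tagln (4895 on both arrays) were level. Over the 8 markers with a probe set the summed signal was 19302 and 17244, most of it from Acta2 and Tagln. The median log2 ratio of the 7 measured genes was -0.60. For the 4 basal keratins the sum was 3667 and 2844, with a median log2 ratio of -0.34. Oxtr, the oxytocin receptor, had 35.6 and 27.2.

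Several luminal lineage markers had clear signal on both arrays and pointed both ways, more of them lower on the GW9662 array. Foxa1 had 3038 and 3993, Gata3 had 1662 and 1919, and Kit had 1185 and 1375. Cd24a had 8089.5 and 7885.5, Mfge8 had 7473 and 6140, Prom1 had 1211 and 966, and Aldh1a3 had 599.5 and 359. Esr1 had 13.3 and 13.2 at its only probe set, within the range of the olfactory receptors. Pgr had 56.4 and 92.5, below 100 on both arrays. Signals this low do not tell whether either gene differed between the diets. By qRT-PCR, the study reported higher Esr1 and Pgr mRNA in tumors of GW9662-treated mice. Milk protein genes were far lower, with Csn2 at 10570 and 1524, Wap at 750.0 and 26.6 and Lalba at 329.6 and 16.5. Elf5, the factor of secretory differentiation, was 2.03-fold lower (4138 and 2040.0). Of 11 luminal lineage markers with a mean signal of at least 100, 3 were higher and 8 lower, with a median log2 ratio of -0.33. The counts were 2 and 9 with the median over probe sets and 4 and 7 after quantile normalization. The summed signal of the 13 with a probe set was 39116 and 26351.

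Fat and skeletal muscle markers were far lower on the GW9662 array. All 8 adipocyte markers were at least 3-fold lower (Adipoq, Cidec, Fabp4, Lep, Lipe, Plin4, Pparg and Retn), and their summed signal was 33825 and 3930.4. All 10 skeletal muscle markers were lower, and 9 met both thresholds (Acta1, Ckm, Myh4, Myl1, Mylpf, Pvalb, Tnnc2, Tnni2 and Tnnt3), and their summed signal was 11291 and 1225. All 6 endothelial markers were lower, or 5 of 6 after quantile normalization, with a summed signal of 3285 and 2090.1, among them Pecam1 (505 and 185), Tek (269 and 123), Emcn (864 and 548.5) and Cdh5 (831 and 531).

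Of 13 mesenchymal markers 9 were lower and 4 higher, or 7 and 6 with the median over probe sets, and the summed signal of the 15 with a probe set was 41252 and 33524. Dcn, which encodes decorin (7005 and 2925), and Lum (4107 and 2356) were lower, while Col1a1 (678 and 1120.0) and Cdh2, which encodes N-cadherin (503 and 830.1), were higher. Immune markers were close to level, with a summed signal of 11159 and 9866 over 8 genes, among them Cd14 (2485 and 2311), Lyz2 (6943 and 5694.5), Cd68 (676 and 816) and Adgre1 (329.9 and 364). The part that the lower fat, muscle, vessel, stromal and contractile markers have in the ratios of the keratin, desmosome and squamous genes was not tested.

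**Figure D4:**
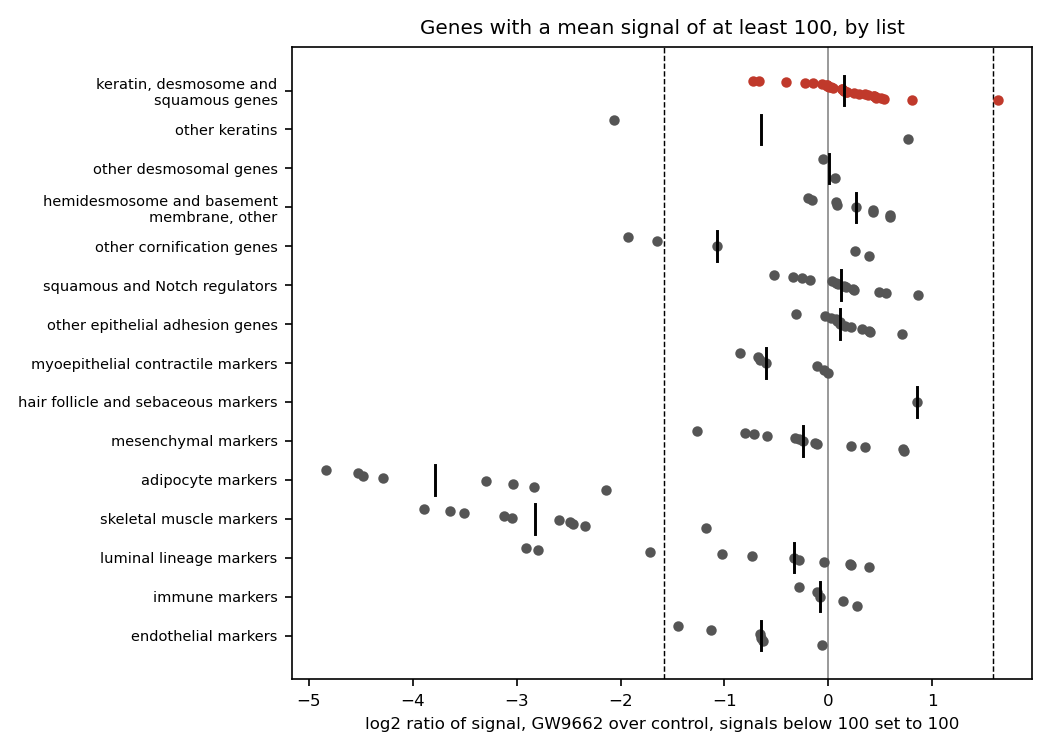
Log2 ratios of signal, GW9662 over control, for genes with a mean signal of at least 100, with signals below 100 set to 100. Each point is a gene, red for the keratin, desmosome and squamous genes and gray for the other lists, black bars are medians and dashed lines mark 3-fold. The red points center on a median of 0.15, while adipocyte (-3.79) and skeletal muscle markers (-2.82) lie far to the left.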

How the data were processed

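RNA from 5 tumor-bearing mice per diet was pooled by the authors, labelled with biotin and hybridized to 1 Affymetrix mouse expression array per diet. The values deposited are signal intensities on a linear scale, 1 per array for each of 22690 probe sets, from the Affymetrix operating software. The sources used here give neither the signal algorithm nor the scaling. The signals were used without further scaling, and a signal of 0 was read as 0.1 on the log2 scale. Precision is limited by the 2 arrays.

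Gene names came from the platform annotation, with symbols updated by gene identifier to RefSeq names of GRCm38.p6. A single gene was named for 20380 probe sets and several for 691, and 64 were array controls. The SD between probe sets was pooled over the 2639 genes read by several probe sets that averaged 100 or more.

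The members and all gene lists were chosen with earlier results of these data known. All members with a probe set are named, and of each other list up to 4 genes with the largest log2 ratios after the floor, plus those past 3-fold. Further genes of these lists were named after their values were seen (Krt1, Krt31, Krt33a, Krt34, Krt86, Flg, Hrnr, Casp14, Krtdap, Klf4, Ehf, Notch1, Jag2, Acta2, Tagln, Oxtr, Foxa1, Gata3, Kit, Cd24a, Mfge8, Prom1, Aldh1a3, Esr1 and Pgr). Alternatives covered the probe set that stands for a gene, centring, quantile normalization, floors and signal minimums. The counting rule was checked on simulated arrays. The planted differences were larger than that of Eppk1, in bright genes and without variation between mice. The check therefore does not bear on the calls made here. Promoters came from RefSeq windows. Calculations used pandas 2.3.3 and numpy 2.4.6 under Python 3.11.15, and matplotlib 3.10.9 drew the plots.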

Additional observations from a re-analysis of the deposited data

How the results depend on the processing

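Eppk1 was the single member past 3-fold, and also past 2-fold, under both other scalings and signal minimums of 100 and 500. The same held under the other choices of probe set, which could change other members but not Eppk1, read by 1 probe set. The floor of 100 is already part of the main rule, so it is no separate check of these counts. Without a floor or a signal minimum, 5 members passed 3-fold and the same number passed 2-fold, the added 4 (Krt4, Krt6b, Krt13 and Sprr1b) being below 100 on both arrays. With a fold of 1.5, chosen after seeing the data, 4 members passed. Family medians moved by less than the SD of 0.36 between probe sets in 55 of 56 comparisons with another setting. The exception was the cornified envelope, whose median of 0.44 became 1.04 with a minimum mean signal of 300, which leaves 2 genes. The floor and the probe set with the highest control signal left every family median unchanged. Centring moved all of them by the same 0.03. These 3 settings therefore add little to the count of 55. Log2 ratios of Eppk1 ranged from 1.61 to 1.70 over the alternatives, of Lgals7 from 0.78 to 0.81, of Krt5 from -0.69 to -0.66 and of Krt14 from -0.75 to -0.70. No paired analysis was possible because each diet has 1 array. Signals below 100 limit what can be said of 10 members.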
